A study of Mus musculus with 6 samples.

Results

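The 40 genes described here act in the G2 phase of the cell cycle and in mitosis. They were chosen by name from 57508 genes measured in KPC1199 cells, a mouse line that the submitters call pancreatic tumor cells. The list holds mitotic cyclins and Cdk1, mitotic kinases, the spindle checkpoint, the chromosomal passenger complex, centromere proteins, kinesins, cytokinesis factors, condensins and the transcription factor Foxm1. The rule uses gene names alone and no measured value. RNA sequencing libraries of KPC1199 cells with reduced Acsl5, the gene of a long-chain acyl-CoA synthetase, were compared with libraries called WT, 3 of each. The question named in the series design is what ACSL5 does in the progression of pancreatic ductal adenocarcinoma. Library names start with siACSL5 in both groups, as in siACSL5_CY3_1 for WT and siACSL5_2260_1 for knockdown. The sources used here do not say what the middle terms mean. The knockdown titles read KO while their genotype field reads knockdown, and no allele, dose or time is given for either group. All 6 libraries are of 1 cell line, and nothing states that those of a group come from separate cultures. A p-value here therefore measures how libraries scatter, and some of that scatter may be technical.

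Cells enter mitosis when Cdk1, bound to cyclin A or cyclin B, is switched on by Cdc25 phosphatases, and the Aurora and Polo-like kinases then build the spindle. The spindle checkpoint holds back the anaphase-promoting complex (APC/C), a ubiquitin ligase, until every kinetochore is attached, after which Cdc20 directs it to destroy cyclin B and securin. Most of these genes are transcribed together late in the cell cycle under the MuvB complex with B-Myb and FoxM1, through a promoter element called the CHR, often with CCAAT boxes bound by NF-Y upstream of it. Their summed RNA is widely read as a sign of how many cells are cycling. In bulk RNA, fewer cells in a phase and less RNA per cell cannot be told apart.

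The promoters of the members share these letters. RefSeq windows on GRCm38.p6, from 250 bases before to 50 bases after the start site, were at hand for 32 of the 40 members. They were searched on both strands for the CHR, written as TTTGAA or TTCGAA, and for CCAAT. The form TTCGAA reads the same on both strands and was counted once per place, and a base could belong to a match of both motifs. Of several windows, the one nearest to the 5′ end of the gene in GENCODE was taken for members. The shares over tested genes and over all genes instead used the first listed window of each gene. The effect of this difference was not tested. A CHR match was present in 26 of the 32 (81.2%), against 14.1% of 10491 tested genes and 19.4% of all 27025 genes with a window. CCAAT was present in 27 (84.4%), against 39.4% of tested genes and 37.9% of all genes with a window. Both were present in 24 (75%), against 6.05% of tested genes and 7.7% of all genes with a window. In 23 members a CHR match began within 50 bases of the start site, a count that was not made for other genes. The 8 stretches that follow belong to core genes of the list and to Bub1, which had the lowest log2 fold change described below. Not all of these genes differed between the groups. Foxm1, also a core gene, and Ccna2 had no window. They run from 120 bases before to 50 after the start site, 5′ to 3′ on the strand of the gene, with matches to the CHR and to CCAAT, on either strand, in capitals.
Bub1, chr2:127831810-127831979, minus strand: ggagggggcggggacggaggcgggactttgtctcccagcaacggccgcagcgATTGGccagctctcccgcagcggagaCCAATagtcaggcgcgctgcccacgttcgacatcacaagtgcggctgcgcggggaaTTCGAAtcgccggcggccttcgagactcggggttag
Plk1, chr7:122159315-122159484, plus strand: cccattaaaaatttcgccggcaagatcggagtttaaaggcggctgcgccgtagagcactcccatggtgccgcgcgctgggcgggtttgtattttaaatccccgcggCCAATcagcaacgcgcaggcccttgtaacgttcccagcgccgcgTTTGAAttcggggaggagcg
Aurka, chr2:172370521-172370690, minus strand: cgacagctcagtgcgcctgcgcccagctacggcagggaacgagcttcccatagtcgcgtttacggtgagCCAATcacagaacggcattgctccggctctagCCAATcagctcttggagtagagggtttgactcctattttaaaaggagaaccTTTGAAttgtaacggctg
Cdc20, chr4:118437294-118437463, minus strand: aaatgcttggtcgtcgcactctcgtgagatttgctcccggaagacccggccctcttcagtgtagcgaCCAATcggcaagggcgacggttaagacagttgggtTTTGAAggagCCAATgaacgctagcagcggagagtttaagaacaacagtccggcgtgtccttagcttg
Cdk1, chr10:69352863-69353032, minus strand: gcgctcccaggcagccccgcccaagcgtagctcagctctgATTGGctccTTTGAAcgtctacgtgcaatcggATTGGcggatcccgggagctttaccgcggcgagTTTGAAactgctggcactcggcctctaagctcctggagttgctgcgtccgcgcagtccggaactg
Ccnb1, chr13:100786437-100786606, minus strand: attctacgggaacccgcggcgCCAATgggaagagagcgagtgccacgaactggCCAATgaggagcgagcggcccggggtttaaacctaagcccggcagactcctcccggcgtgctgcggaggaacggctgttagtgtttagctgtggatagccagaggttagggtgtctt
Top2a, chr11:99024140-99024309, minus strand: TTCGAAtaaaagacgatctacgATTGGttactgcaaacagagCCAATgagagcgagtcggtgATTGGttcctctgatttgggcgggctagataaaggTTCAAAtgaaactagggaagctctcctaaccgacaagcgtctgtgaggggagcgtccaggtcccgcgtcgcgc
Mki67, chr7:135716330-135716499, minus strand: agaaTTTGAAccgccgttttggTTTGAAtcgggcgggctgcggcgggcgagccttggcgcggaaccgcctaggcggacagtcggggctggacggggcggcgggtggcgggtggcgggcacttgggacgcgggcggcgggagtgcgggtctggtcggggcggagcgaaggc
Bub1 has CCAAT matches at -68 and -42 and a CHR match at +15, and Plk1 a CCAAT match at -14 and a CHR match at +31. The Ccnb1 stretch has CCAAT at -99 and -67 and no CHR match.

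All 40 members were expressed in every library. Per length and on the TPM scale (a share of transcripts, corrected for length and deposited by the authors), the 5 libraries other than WT replicate 1 gave the highest mean level for Top2a, the topoisomerase that untangles sister chromatids, at 393 TPM (lowest 364, highest 413). Birc5 followed at 276 TPM (254 to 295), Cdk1 at 266 TPM (259 to 271) and Ube2c at 249 TPM (179 to 394). The ranges of Birc5, Cdk1 and Ube2c overlapped, so these neighbours in the order were not separated by their spread. The lowest level was that of the checkpoint kinase Ttk, at 18.7 TPM (16.8 to 21.1), after Cdc25c at 25.2 TPM (22.7 to 27.0) and Kif4 at 25.5 TPM (23.9 to 26.4). The levels of the 40 members summed to 3906 and 3884 TPM in WT replicates 2 and 3 and to 4137, 4077 and 4040 TPM in knockdown replicates 1, 2 and 3. In WT replicate 1 the sum was 2853 TPM, below every other library. Part of the higher sum in knockdown came from Ube2c, with means of 180 TPM in WT replicates 2 and 3 and 294 TPM in knockdown. In CPM (read counts scaled to library size by TMM) the sums overlapped between the groups. They were 6989 and 7044 in WT replicates 2 and 3, 7160, 7075 and 6842 in knockdown, and 6216 in WT replicate 1.

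One WT library, replicate 1, differed from all others. Its log2 CPM values (read counts scaled to library size by TMM) had Pearson correlations of 0.902 to 0.921 with theirs, against 0.972 to 0.992 among them. The deviation ran with the length of the gene. Across the 40 members, the log2 CPM of WT replicate 1 minus the mean of the other WT libraries had a Spearman correlation of -0.82 with length, against -0.58 over 14679 tested genes. The points share 1 library, and the correlation is a description. The 10 shortest members, up to 1905 bases, had a median deviation of 0.91 log2 units, and the 10 longest, from 4605 bases, one of -0.82. Birc5, of 947 bases, stood at 402 CPM in WT replicate 1 and at 148 and 158 CPM in replicates 2 and 3. Cenpf, of 11130 bases, stood at 67.3 CPM and at 186 and 188 CPM. In all, 18 of the 40 members differed by at least 1.5-fold between WT replicate 1 and the mean of the other WT libraries. The part of this library in each comparison was therefore measured by fitting all 6 libraries and then the 5 without it.

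**Figure D1:**
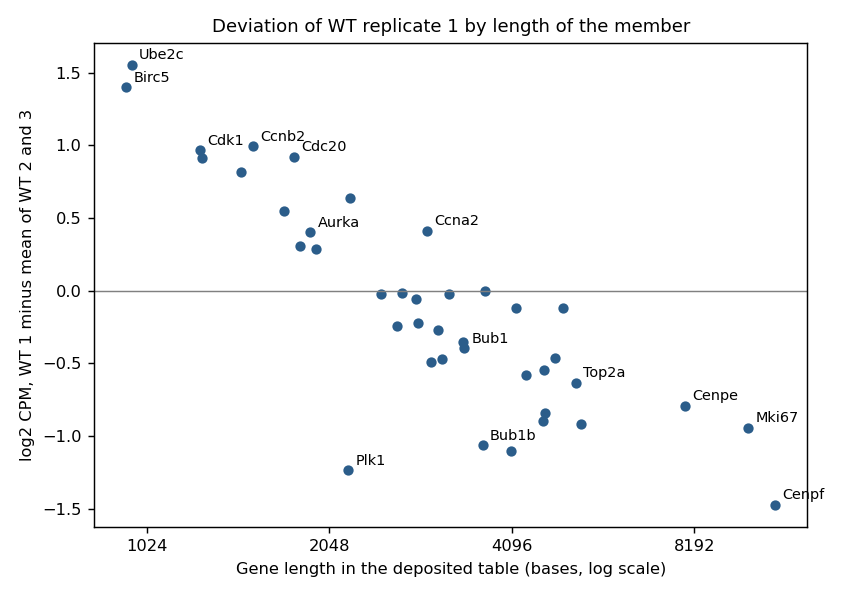
Each point is 1 of the 40 members, with its length in the deposited table (bases, log axis) against the log2 CPM of WT replicate 1 minus the mean of WT replicates 2 and 3. Short members such as Birc5 and Ube2c lie above 0 and long members such as Cenpf and Mki67 below it, with a Spearman correlation of -0.82.

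Libraries held 21794244 to 29996194 expected counts. Acsl5 checked the labels, at 342, 265 and 270.2 CPM in the WT libraries and at 49.8, 55.6 and 57.2 CPM in the knockdown libraries, with no overlap. Its log2 fold change was -2.32 (SE 0.0638, adjusted p = 5.95e-08) without WT replicate 1 and -2.43 (adjusted p = 0.0619) with all 6 libraries. The 6 epithelial markers, led by keratins, summed to 8522 to 9053 TPM in WT and 7850 to 8609 TPM in knockdown libraries. Endothelial markers reached at most 0.12 TPM and endocrine markers 0.3 TPM. Fibroblast markers summed to 7.97 to 31.4 TPM in WT and 21.5 to 24.2 TPM in knockdown. Lum was at 0 and Dcn at or near 0 throughout, but Pdgfra, Pdgfrb and Col1a1 were detected. Pdgfra stood at 5.92, 20.25 and 24.7 TPM in WT and at 13.16, 14.69 and 14.44 TPM in knockdown. Pdgfrb stood at 1.13, 3.56 and 3.9 TPM in WT and at 5.61, 6.85 and 6.51 TPM in knockdown. Col1a1 ran from 0.92 to 3.16 TPM over the 6 libraries. Leukocyte markers, of which Cd68 was the only one above 1 TPM, summed to 3.55 to 6.53 and 7.19 to 8.59 TPM. Acinar markers, nearly all Cela1 with Prss1 and Ctrb1 at 0, summed to 6.26 to 9.94 and 12.4 to 14.7 TPM. The part of these low marker levels in the comparisons was not tested.

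The mitotic genes were called in both directions between knockdown and WT, and the calls depended on WT replicate 1. Over the 6 libraries, no member was called, meaning an adjusted p below 0.05 in the quasi-likelihood test of edgeR, and 0% of the 14679 genes tested were called either. In that fit 2 members had an unadjusted p below 0.05, Bub1 and Ccna2, both lower in knockdown, as had 2351 of all genes. DESeq2 called these same 2 members, against 7.68% of all genes. With a smooth trend with length removed from each library, edgeR called Bub1 alone (adjusted p = 0.0156), against 6.34% of all genes. Without WT replicate 1, 18 of the 40 members were called (45%), against 34.3% of 15152 genes tested. Of these, 10 rose (25%, against 16.3% of all genes) and 8 fell (20%, against 18.0%). The median log2 fold change of the 40 members was -0.04, beside -0.01 over all genes, and with 6 libraries it was 0.09 beside -0.02.

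Most differences were small, and overlap between groups is stated in CPM unless TPM is named. Without WT replicate 1, 30 of the 40 members differed by less than 0.2 log2 units, and among the called members Bub1 and Cdc20 alone passed 0.5. The knockdown libraries all lay above both remaining WT libraries in 14 members, and all below them in 10, against 28.7% and 30.9% of all genes. With all 6 libraries, 10 members lay above and 6 below without overlap, against 18.7% and 15.6%. The sign of the log2 fold change differed between the fits for 15 members, of which Cdca8, Prc1, Ect2 and Top2a were called without WT replicate 1.

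**Figure D2:**
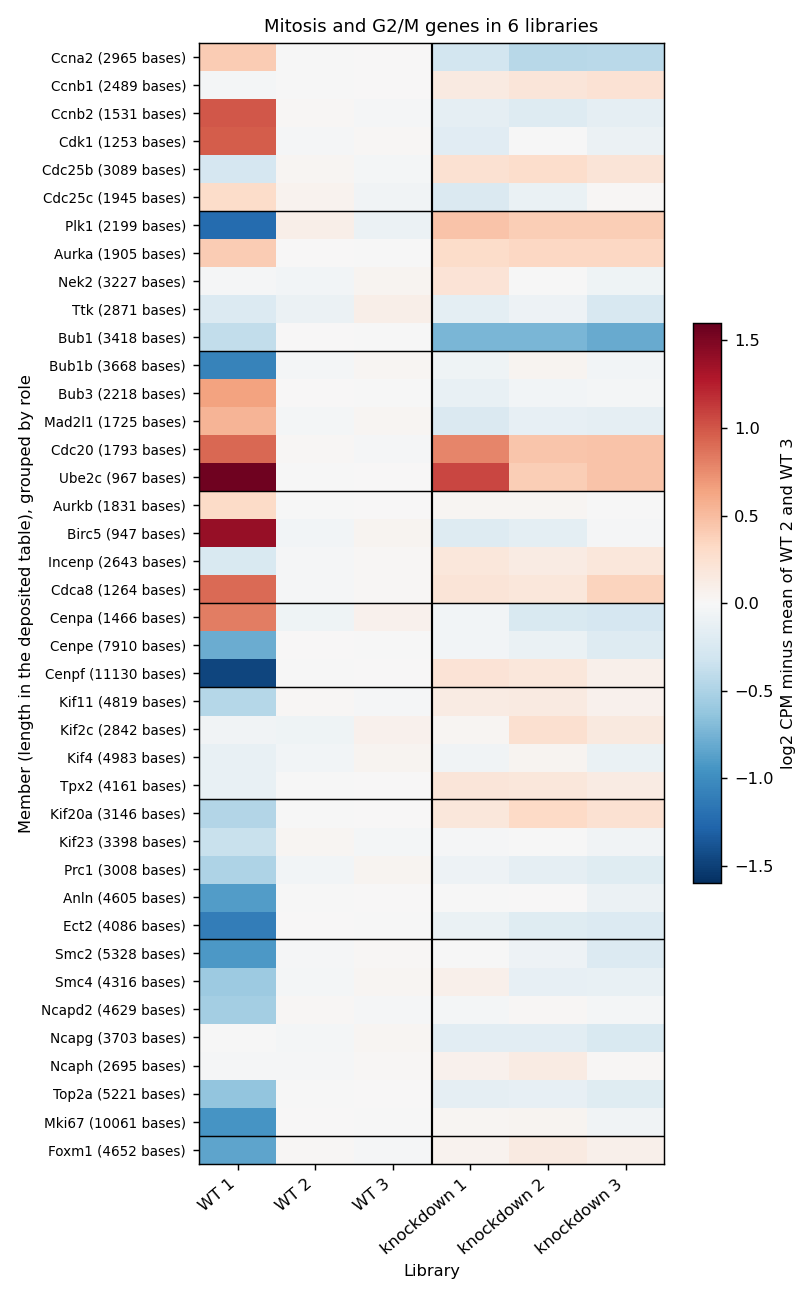
Each row is a member, grouped by role with its length in bases, and each column a library; colours give the log2 CPM minus the mean of WT replicates 2 and 3, from blue (lower) to red (higher). WT replicate 1 is the most strongly coloured column, while Bub1 is blue and Cdc20 red in all 3 knockdown libraries.

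The calls also ran with base composition. GC content was that of the longest annotated transcript of each gene. Across the members, the log2 fold change without WT replicate 1 had a Spearman correlation of 0.65 with it, against 0.32 over all genes. Median GC content was 49.9% in members that rose, 42.2% in those that fell and 47.7% in those not called. With a smooth trend with GC removed from each library, 10 members rose and 2 fell, against 15.9% and 15.9% of all genes. The 2 that fell were Bub1 and Ccna2. In both versions 9 members rose, namely Ccnb1, Cdc25b, Plk1, Aurka, Cdc20, Cdca8, Cenpf, Tpx2 and Kif20a. Incenp was called higher only before the removal of the trend and Kif11 only after it. The part of base composition in the other calls was not tested.

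**Figure D3:**
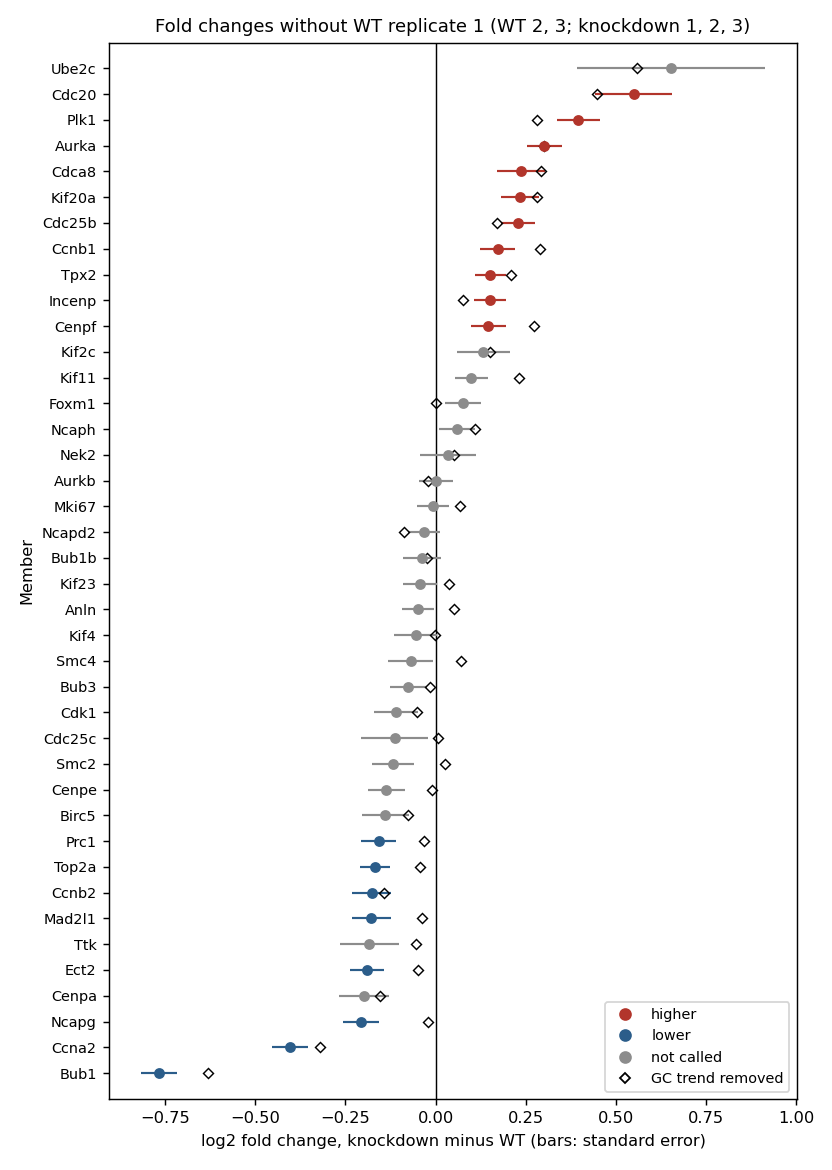
Points give the log2 fold change, knockdown minus WT, of each member without WT replicate 1, with the standard error as a bar, in red (called higher), blue (called lower) or grey (not called); open diamonds give the value with the GC trend removed. Bub1 lies lowest at -0.77, Cdc20 at 0.55 is the highest called member, and most diamonds of the lower members lie near 0.

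Among the cyclins, Cdk1 and its phosphatases, Ccnb1 and Cdc25b rose, Ccna2 and Ccnb2 fell, and Cdk1 and Cdc25c were not called. Ccna2, the cyclin of S phase and of entry into mitosis, lies on chromosome 3 at 36564865 to 36572150 (GRCm38, minus strand). It stood at 343, 257 and 258 CPM in WT replicates 1, 2 and 3 and at 210.2, 189.9 and 191 CPM in knockdown replicates 1, 2 and 3. In CPM all knockdown libraries were below all WT libraries. In deposited TPM, WT replicate 1 was at 98.0 and lay below the knockdown libraries, at 116, 107 and 106, which were below WT replicates 2 and 3, at 139.3 and 141. The log2 fold change was -0.40 (SE 0.04998, adjusted p = 1.98e-04) without WT replicate 1 and -0.54 (SE 0.169, adjusted p = 0.227) with it, where DESeq2 gave an adjusted p of 0.0390 and log2(TPM + 1) a value of -0.18 (adjusted p = 0.628).

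Ccnb1, the cyclin B that activates Cdk1 at mitotic entry, lies on chromosome 13 at 100778650 to 100786570 (minus strand). It stood at 150.1, 152 and 153 CPM in WT and at 169, 175 and 179 CPM in knockdown, a small difference without overlap. The log2 fold change was 0.17 (SE 0.0487, adjusted p = 0.0195) without WT replicate 1 and 0.20 (SE 0.118, adjusted p = 0.438) with it. Its partner Cdk1, on chromosome 10 at 69335146 to 69352938 (minus strand), stood at 234, 119 and 121 CPM in WT and at 105, 119 and 112 CPM in knockdown. The high WT value was that of replicate 1, and the groups overlapped. Cdk1 was at -0.11 (SE 0.0602, adjusted p = 0.189) without that library and at -0.49 (SE 0.294, adjusted p = 0.437) with it. Cdc25b, an activator of Cdk1 in G2, was at 0.23 (adjusted p = 0.00411) without WT replicate 1, and Ccnb2, the second B cyclin, at -0.18 (adjusted p = 0.0263). Cdc25c, an activator of Cdk1 at mitotic entry, was the scarcest of this group, at 24.5 to 35.1 CPM over the 6 libraries, and was at -0.11 (adjusted p = 0.386).

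Of the 5 mitotic kinases, Plk1 and Aurka rose, Bub1 fell, and Nek2 and Ttk were not called. Bub1, the checkpoint kinase that marks centromeric histone H2A, lies on chromosome 2 at 127801122 to 127831865 (minus strand). It stood at 73.5, 97.1 and 96.2 CPM in WT and at 58.3, 58.4 and 55.4 CPM in knockdown. On this scale every knockdown library was below every WT library, including WT replicate 1. On the deposited TPM scale WT replicate 1, at 16.1 TPM, was instead below the knockdown libraries, at 31.9, 27.4 and 33.7 TPM, while WT replicates 2 and 3, at 44.2 and 44.5 TPM, were above them. Relative to WT replicates 2 and 3 (96.7 ± 0.651 CPM, SD, n = 2), knockdown libraries (57.4 ± 1.71 CPM, SD, n = 3) held 59.4% of the level. The log2 fold change was -0.77 (SE 0.0498, adjusted p = 5.26e-06), the lowest among the members. With all 6 libraries it was -0.63 (SE 0.155, adjusted p = 0.159), and there DESeq2 gave an adjusted p of 0.00462. On the log2(TPM + 1) scale the value was smaller, -0.51 (adjusted p = 0.0292) without WT replicate 1 and -0.038 (adjusted p = 0.966) with it.

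Plk1, the Polo-like kinase of centrosomes and kinetochores, lies on chromosome 7 at 122159439 to 122169873 (plus strand). It stood at 44.6, 112 and 98.6 CPM in WT and at 143, 138 and 138 CPM in knockdown. The groups did not overlap, and WT replicate 1 was far below the other WT libraries, at 0.424 of their mean. Plk1 was at 0.40 (SE 0.0594, adjusted p = 6.35e-04) without WT replicate 1 and at 0.72 (SE 0.338, adjusted p = 0.357) with it. Aurka, the Aurora kinase of spindle poles, lies on chromosome 2 at 172356190 to 172370535 (minus strand) and stood at 131, 99.7 and 98.2 CPM in WT and at 121, 124 and 124 CPM in knockdown. In CPM, WT replicate 1 alone was above knockdown libraries. In deposited TPM it was the lowest library, and the groups did not overlap, at 63.1, 90.5 and 89.4 in WT and at 113, 117 and 114 in knockdown. Aurka was at 0.30 (SE 0.0489, adjusted p = 9.84e-04) without that library and at 0.17 (SE 0.158, adjusted p = 0.601) with it. Nek2, a kinase of centrosome separation, was at 0.03 (adjusted p = 0.773) and Ttk, the kinase that starts the checkpoint signal, at -0.18 (adjusted p = 0.110), both without WT replicate 1.

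**Figure D4:**
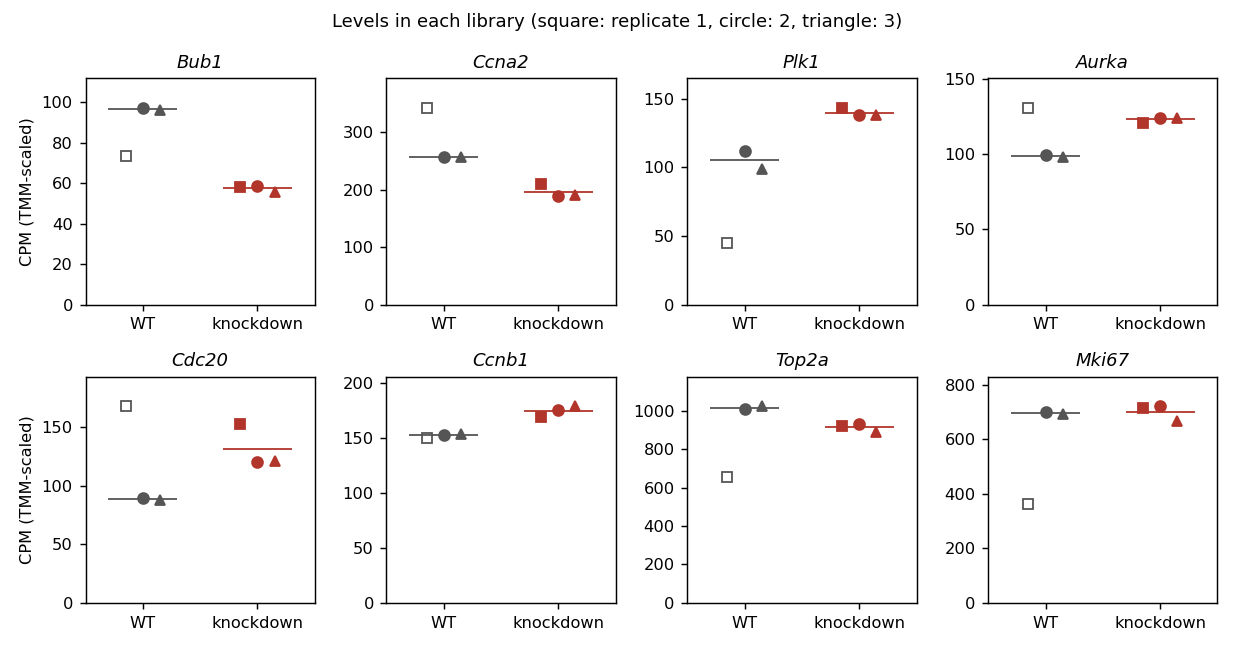
TMM-scaled CPM of 8 members in each library, with squares for replicate 1, circles for 2 and triangles for 3; the open square is WT replicate 1, and lines mark group means, without WT replicate 1. Knockdown values of Bub1 and Ccna2 lie below all WT values and those of Plk1 and Ccnb1 above them, while Mki67 at 667 to 721 CPM overlaps the WT values once replicate 1 is set aside.

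In the spindle checkpoint and APC/C group, Cdc20 rose, Mad2l1 fell, and Bub1b, Bub3 and Ube2c were not called. Cdc20, the APC/C activator that the checkpoint inhibits, lies on chromosome 4 at 118432901 to 118437352 (minus strand). It stood at 168, 89.9 and 87.6 CPM in WT and at 153, 120.3 and 121 CPM in knockdown. In CPM, replicate 1 was the highest in both groups, and the groups overlapped through WT replicate 1 alone. In deposited TPM the groups did not overlap, at 85.6, 90.3 and 85.7 in WT and at 145, 118 and 119 in knockdown. Cdc20 was at 0.55 (SE 0.107, adjusted p = 0.00961) without WT replicate 1 and at 0.19 (SE 0.293, adjusted p = 0.752) with it. Leaving out knockdown replicate 1 as well gave 0.45 (adjusted p = 1.27e-07), in a fit that called 26 of the 40 members and 41.4% of all genes.

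Ube2c, the ubiquitin-conjugating enzyme that works with the APC/C, showed the same arrangement of libraries in CPM. It stood at 262, 89.2 and 89.4 CPM in WT and at 187, 118 and 123 CPM in knockdown. Its log2 fold change of 0.65 (SE 0.261) was the highest of all members without WT replicate 1 but was not called (adjusted p = 0.160), with 1 knockdown library far above the others. Without knockdown replicate 1 too, Ube2c was at 0.43 (adjusted p = 2.69e-07), in the fit that called 41.4% of all genes. The library left out there was the high one, so its removal narrowed the knockdown spread of this gene. With all 6 libraries Ube2c was at -0.05 (SE 0.482, adjusted p = 0.967). Mad2l1, the Mad2 protein that binds Cdc20 when kinetochores are unattached, stood at 179, 119.5 and 125 CPM in WT and at 105, 112 and 111 CPM in knockdown, all below WT. It was at -0.18 (SE 0.0541, adjusted p = 0.0264) without WT replicate 1, at -0.04 (adjusted p = 0.645) once the GC trend was also removed, and at -0.37 (adjusted p = 0.390) with all 6 libraries. Bub1b and Bub3, the other subunits of the checkpoint complex, were at -0.04 (adjusted p = 0.617) and -0.08 (adjusted p = 0.288). So within the checkpoint the kinase Bub1 was at -0.77 while its binding partner Bub3 was at -0.08, and the difference between these values was not tested.

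Of the 4 genes of the chromosomal passenger complex, which corrects faulty attachments and guides cytokinesis, Incenp and Cdca8 rose and none fell. Cdca8, the Borealin subunit, stood at 104, 54.7 and 56.4 CPM in WT and at 64.2, 63.1 and 71.2 CPM in knockdown. It overlapped through WT replicate 1, which was 1.88-fold the mean of the others. Cdca8 was at 0.24 (SE 0.0668, adjusted p = 0.0194) without WT replicate 1 and at -0.12 (SE 0.279, adjusted p = 0.844) with it. The log2(TPM + 1) values gave -0.04 (adjusted p = 0.808), so its direction differed between the deposited counts and the deposited TPM. Incenp, the scaffold, was at 0.15 (SE 0.0440, adjusted p = 0.0221) and at 0.08 (adjusted p = 0.225) with the GC trend removed. Birc5, the Survivin subunit, stood at 402, 148 and 158 CPM in WT and at 132, 137 and 151 CPM in knockdown. It was at -0.14 (SE 0.0649, adjusted p = 0.126) without WT replicate 1 and at -0.75 (SE 0.412, adjusted p = 0.411) with it. Aurkb, the kinase of the complex, stood at 96.5 to 98.9 CPM in the 5 libraries other than WT replicate 1, and was at 0.00 with a standard error of 0.0475 (adjusted p = 0.991).

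Of the 3 centromere and kinetochore members, Cenpf rose, and Cenpa and Cenpe were not called. Cenpf, a very long outer kinetochore protein, stood at 67.3, 186 and 188 CPM in WT and at 218, 213 and 197 CPM in knockdown, all above WT. In deposited TPM the groups overlapped, at 14.9, 33.1 and 26.2 in WT and at 28.4, 32.0 and 38.8 in knockdown. There log2(TPM + 1) gave 0.15 (adjusted p = 0.548) without WT replicate 1. Cenpf was at 0.15 (SE 0.0495, adjusted p = 0.0422) without WT replicate 1 and at 0.51 (SE 0.389, adjusted p = 0.527) with it. Cenpa, the histone H3 variant that defines the centromere, stood at 158, 85.7 and 93.7 CPM in WT and at 87.3, 75.7 and 74.5 CPM in knockdown. It was at -0.20 (SE 0.0706, adjusted p = 0.0532) and at -0.51 (SE 0.261, adjusted p = 0.392) without and with WT replicate 1. With log2(TPM + 1) the sign was positive, at 0.11 (adjusted p = 0.758) without WT replicate 1. Cenpe, the kinetochore kinesin, was at -0.14 (SE 0.0509, adjusted p = 0.0601).

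Of the 4 spindle motors and assembly factors, Tpx2 rose and the others were not called. Tpx2, the activator of Aurora A on the spindle, stood at 200.2, 217 and 218 CPM in WT and at 249, 246 and 238 CPM in knockdown, without overlap. It was at 0.15 (SE 0.0429, adjusted p = 0.0195) without WT replicate 1 and at 0.21 (SE 0.125, adjusted p = 0.440) with it. Kif11, the Eg5 motor that pushes spindle poles apart, was at 0.10 (adjusted p = 0.116), and at 0.23 (adjusted p = 0.00267) with the GC trend removed. Kif2c, a kinesin that shortens microtubules at centromeres, was at 0.13 (adjusted p = 0.203), and Kif4, the chromokinesin of chromosome arms, at -0.06 (adjusted p = 0.515).

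Among the 5 cytokinesis genes, Kif20a rose, Prc1 and Ect2 fell, and Kif23 and Anln were not called. Kif20a, the kinesin that carries the passenger complex to the midzone, stood at 135, 187 and 189 CPM in WT and at 213, 234 and 222 CPM in knockdown, without overlap. It was at 0.23 (SE 0.0526, adjusted p = 0.00624) without WT replicate 1 and at 0.39 (SE 0.173, adjusted p = 0.339) with it. Ect2, the exchange factor that activates RhoA at the cell equator, was at -0.19 (SE 0.0466, adjusted p = 0.00961), and Prc1, which bundles midzone microtubules, at -0.16 (SE 0.0490, adjusted p = 0.0291). Neither kept its call with the GC trend removed, at -0.05 and -0.03. With all 6 libraries Ect2 was at 0.11 and Prc1 at 0.00. Kif23, the centralspindlin motor, was at -0.04 (adjusted p = 0.525) and Anln, the anillin of the contractile ring, at -0.05 (adjusted p = 0.447).

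Of the 7 genes of chromosome structure, Ncapg and Top2a fell and none rose. Top2a, on chromosome 11 at 98992943 to 99024189 (minus strand), stood at 655, 1008 and 1023 CPM in WT and at 922, 929 and 890.2 CPM in knockdown. The knockdown libraries were below WT replicates 2 and 3 and above replicate 1. Top2a was at -0.17 (SE 0.0407, adjusted p = 0.00906) without that library, at -0.04 (adjusted p = 0.429) once the GC trend was also removed, and at 0.03 (SE 0.215, adjusted p = 0.952) with all 6 libraries. Ncapg, a subunit of condensin I with the lowest GC content among the members (34.8%), stood at 88.6, 86.8 and 90.5 CPM in WT and at 79.0, 79.2 and 74.9 CPM in knockdown. Here WT replicate 1 lay between the other WT libraries. Ncapg was at -0.21 (SE 0.0508, adjusted p = 0.00969) without WT replicate 1, at -0.19 (SE 0.116, adjusted p = 0.443) with it, and at -0.02 (adjusted p = 0.775) with the GC trend removed. The other condensin genes, Smc2, Smc4, Ncapd2 and Ncaph, were between -0.12 and 0.06, with adjusted p from 0.147 to 0.627.

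Mki67, which encodes the proliferation antigen Ki-67 and lies on chromosome 7 at 135689784 to 135716361 (minus strand), stood at 362, 699 and 694 CPM in WT and at 713, 721 and 667 CPM in knockdown. Apart from WT replicate 1, the groups overlapped. Mki67 was at -0.01 (SE 0.0451, adjusted p = 0.917) without WT replicate 1 and at 0.26 (SE 0.279, adjusted p = 0.647) with it. Foxm1, the transcription factor that drives much of this program, lies on chromosome 6 at 128362967 to 128376146 (plus strand) and stood at 85.2, 155 and 151 CPM in WT and at 158, 168 and 161 CPM in knockdown. All knockdown libraries lay above all WT libraries, by little for WT replicate 2. Foxm1 was at 0.08 (SE 0.0493, adjusted p = 0.271) without WT replicate 1 and at 0.32 (SE 0.247, adjusted p = 0.529) with it.

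Calls differed in how well they held. Of the 18 members called without WT replicate 1, Ccna2, Plk1 and Aurka were called in all 18 alternative settings of that fit. Bub1 was called in 17 of them, the exception being log2(TPM + 1) without a filter. The log2 fold change of Ccna2 ranged from -0.45 to -0.32, that of Plk1 from 0.26 to 0.49, that of Aurka from 0.27 to 0.35 and that of Bub1 from -0.78 to -0.51. The remaining 14 called members lost the call in between 4 and 11 settings. Leaving out WT replicate 2 or 3 as well left 1 WT library, and fewer members, like fewer of all genes, were then called. The median log2 fold change of the members was -0.037 or -0.030 there, beside -0.0039 or 0.0012 over all genes.

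Other genes of mitosis were read from 7 further lists, none with a gene called over all 6 libraries. In the fit without WT replicate 1, 9 of 39 further kinetochore and centromere genes rose and 9 fell, with a median of 0.01 (12 and 6 with the GC trend removed). Cenpi was at -0.51 (adjusted p = 5.34e-04) and Zwilch, part of the complex that recruits dynein, at -0.47 (adjusted p = 6.08e-04). Of 19 APC/C and separase genes, 4 rose and 5 fell (4 and 4 with the GC trend removed). Anapc5, a scaffold subunit of the APC/C, stood at 347, 271 and 278 CPM in WT and at 179, 180.1 and 168 CPM in knockdown, with no overlap. It was at -0.66 (SE 0.0460, adjusted p = 7.96e-06) without WT replicate 1 and at -0.77 (adjusted p = 0.124) with it. Anapc4 was at -0.39 (adjusted p = 3.87e-04) and Anapc7 at 0.41 (adjusted p = 5.41e-04).

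Of 32 further spindle and cytokinesis genes, 10 rose and 3 fell, with a median of 0.05 (14 and 3 with the GC trend removed). The kinesin gene Kif18b was at 0.46 (adjusted p = 1.7e-04), Troap at 0.44 (adjusted p = 3.23e-04) and Cdca3 at 0.36 (adjusted p = 0.00113), although Cdca3 was at -0.18 with all 6 libraries. Of 16 regulators of mitotic entry, 4 rose and 4 fell (5 and 3 with the GC trend removed). The kinase Melk was at -0.56 (adjusted p = 1.87e-04), the nuclear lamin Lmnb2 at 0.40 (adjusted p = 0.00103) and Ensa, an inhibitor of the phosphatase PP2A in mitosis, at -0.26 (adjusted p = 0.00185).

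Among 14 further condensin and cohesin genes, 6 fell and 1 rose, with a median of -0.08. With the GC trend removed 3 fell and 4 rose. The cohesin regulators Pds5a and Wapl were at -0.34 (adjusted p = 2.79e-04) and -0.26 (adjusted p = 0.00188), and the condensin II gene Ncapg2 was at -0.24 (adjusted p = 0.00264). Of 13 genes of the MuvB, B-Myb and DREAM machinery that acts on the CHR, 3 rose and 1 fell (6 and 2 with the GC trend removed). Lin37, a MuvB subunit, stood at 16.9, 7.54 and 6.43 CPM in WT and at 13.4, 13.8 and 15.0 CPM in knockdown. WT replicate 1 exceeded every knockdown library, and Lin37 was at 0.999 (SE 0.124, adjusted p = 1.98e-04) without that library and at 0.45 (adjusted p = 0.562) with it. Lin9, another MuvB subunit, was at 0.25 (adjusted p = 0.0220) and Nfyc, a subunit of NF-Y, at 0.22 (adjusted p = 0.0331).

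For comparison, of 40 genes of DNA replication and the G1/S transition, 7 rose and 8 fell, with a median of -0.05 (12 and 10 with the GC trend removed). Cdt1, which licenses replication origins, was at 1.07 (adjusted p = 6.43e-05), the polymerase gene Pold1 at 0.59 (adjusted p = 1.43e-04) and Pole at -0.36 (adjusted p = 7.22e-04). With the GC trend removed these genes were at 0.88, 0.22 and -0.35. With all 6 libraries they were at 0.88, 0.86 and -0.03, none of them called. The shares called in the mitotic list and in these lists are set beside those of all genes in the bar plot.

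**Figure D5:**
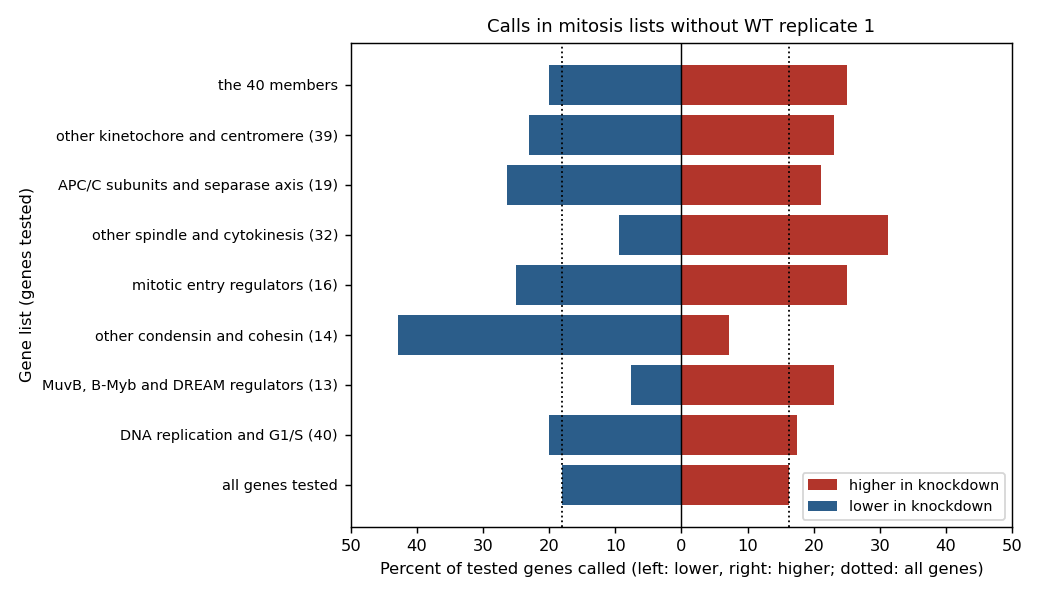
Bars give the percent of tested genes called higher (right, red) and lower (left, blue) in knockdown without WT replicate 1 for the 40 members, 7 other lists with their number of tested genes, and all genes; dotted lines repeat the values of all genes, 16.3% and 18.0%. The 40 members stand at 25% higher and 20% lower.

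The members were also split by their promoters. Of the 26 members with a CHR match, 6 rose and 6 fell without WT replicate 1, beside 16.3% and 18.0% of all genes, with a median log2 fold change of -0.05. With the GC trend removed, 7 of the 26 rose and 1 fell, beside 15.9% and 15.9%, with a median of 0.01. Of the 6 without a match, 1 rose and 1 fell, with a median of -0.05 (1 and 0 with the GC trend removed), and of the 8 with no window 3 rose and 1 fell, with a median of 0.04 (2 and 1 with the GC trend removed). Bub1, Plk1, Aurka and Cdc20, printed with their promoters, all have CHR and CCAAT matches, and Bub1 fell while the others rose.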

How the data were processed

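RNA of 3 WT and 3 ACSL5 knockdown libraries of KPC1199 cells was extracted with TRIzol and sequenced on an Illumina platform, per the labels' protocols. Tools named in the submitters' processing notes are fastp, HISAT2, StringTie and DESeq2, with neither version nor role. The builds named there, hg38 and GRCh38, are human, whereas the tables carry mouse Ensembl identifiers. How genes were counted, and whether by strand, is not given in the sources used here, so reads of overlapping or antisense genes cannot be told apart. The authors deposited expected counts per gene (not whole in 10.1% to 13.0% of genes, depending on the library) and TPM values whose columns sum to between 999999 and 1000001. The deposited gene length was read from the same tables. Columns of group means were not used.

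Expected counts, 21794244 to 29996194 per library, were rounded to whole numbers, and went through filterByExpr and TMM scaling. The quasi-likelihood test of edgeR 4.0.16 (robust, two-sided, R 4.3.3) then compared knockdown with WT, once over 6 libraries and once without WT replicate 1. Benjamini-Hochberg adjustment covered every gene tested in a fit, the threshold for a call was an adjusted p of 0.05, and all 40 members passed the filter in both fits. Standard errors were taken from the fold change and the F value. Standard errors of members ran from 0.0407 to 0.261 log2 units without WT replicate 1. Log2 fold changes are knockdown minus WT. CPM are scaled by TMM. Fits were also run on simulated counts, with changes larger than most of those seen in the members. That run does not bear on calls of differences as small as most of these.

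Alternatives were size factors of DESeq2, library totals, no filter, DESeq2 1.42.0, limma-voom of limma 3.58.1 with and without quality weights, limma on log2(TPM + 1) and log2(TPM + 0.1) with and without a minimum mean of 1 TPM, the replicate number as a block, leaving out each library, and the same test after taking out smooth trends of each library with length, GC content or both (lowess, span 0.3). The version with both was added after seeing the data. Positions and GC content came from GENCODE M21 on GRCm38, promoters from RefSeq on GRCm38.p6. GC content was taken from the longest transcript of a gene, which is not always the one of the deposited length. For Mad2l1 that transcript has 7557 bases, against a deposited length of 1725.

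The members, the other lists and the tests were chosen with earlier results of these data known. Values per library are given for 8 core members, for the member of each role with the smallest p in each fit, and for Acsl5. Up to 3 genes with the smallest p without WT replicate 1 are named from each other list. Ube2c, Anapc5 and Lin37 were given per library after their values were seen. One gene that this rule names is not reported here.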

Additional observations from a re-analysis of the deposited data

How the results depend on the processing

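With 6 libraries, 0 members and 0 genes were called in the main test. Member counts became 2 in DESeq2 (0 higher, 2 lower), 18 with quality weights (9 higher, 9 lower), 1 with the length trend removed (lower), and 2 with the length and GC trends removed (1 higher, 1 lower). Leaving out each library gave 0 to 18 members (0 to 10 higher, 0 to 8 lower), with 18 only without WT replicate 1. Over all genes the count was 1127 in DESeq2, 8 in limma-voom, 5937 with quality weights, 930 with the length trend and 617 with both trends removed, 4 with no filter, 1 with library totals, and 0 to 5193 over the leave-outs. The median of the members, 0.09, became 0.18 with library totals, -0.017 with quality weights, 0.36 with log2(TPM + 1) with or without a filter, 0.37 with log2(TPM + 0.1), 0.015 with the length trend removed, and -0.041 to 0.13 over the leave-outs. Top2a, at 0.03, reversed to -0.15 with quality weights, and Cdca8, at -0.12, to 0.25. Leaving out each library gave -0.17 to 0.13 for Top2a and -0.28 to 0.24 for Cdca8. The causes were not tested.

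Without WT replicate 1, the 18 members (10 higher, 8 lower) became 7 with log2(TPM + 1) and with log2(TPM + 0.1), each with 4 higher and 3 lower, and 4 with log2(TPM + 1) without a filter (2 higher, 2 lower). In these 3 settings 17.8%, 18.5% and 4.68% of all genes were called, against 34.3% in the main test. The lower members became 5 with library totals, 2 with the GC trend removed and 3 with both trends removed. Leaving out a further library gave 4 to 26 members, 2 to 14 higher and 2 to 12 lower. Where 1 WT library remained, its spread was taken to equal that of the knockdown group. The 5193 genes became 2467, 2569 and 1219 in the TPM settings, and 2599 to 6188 over the leave-outs. The median of -0.041 became -0.0072 with library totals, -0.0097 with the length trend removed, 0.020 in each of the 3 TPM settings, 0.016 with the GC trend removed, 0.038 with both trends removed, and -0.040 to -0.013 over the leave-outs. Mki67, at -0.01 and not called, reversed to 0.15 (adjusted p = 0.00681) with both trends removed, and Cdca8, at 0.24, to -0.038 with log2(TPM + 1), with or without a filter, and to -0.039 with log2(TPM + 0.1). Other named values kept their direction where they or the alternative were called. The causes were not tested.

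Deviations of same-numbered WT and knockdown libraries had correlations of -0.12, 0.02 and -0.14. WT replicates 2 and 3 gave nearly the same value with each knockdown library, and WT replicate 1 gave values of the opposite sign. With the WT deviations set by that library, this check cannot decide whether the numbers pair the libraries. With the replicate number as a block, 0 members were called over 6 libraries, and 23 without WT replicate 1 (11 higher, 12 lower) among 5753 genes. The main limits are the number of libraries, 3 against 3 or 2 against 3, and a WT library that differs with gene length. With 2 WT libraries that lay close together, standard errors rest largely on the spread borrowed across genes.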
